A study of Mus musculus with 9 samples.

Results

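The laminins and nidogens are the polymer-forming and polymer-linking glycoproteins of basement membranes, and their transcripts were followed in whole lenses of *Atf4* null and wildtype mouse embryos. The 10 genes were taken by symbol: the alpha chain genes *Lama1*, *Lama2*, *Lama3*, *Lama4* and *Lama5*, the beta chain genes *Lamb1* and *Lamb2*, the gamma chain gene *Lamc1*, and the nidogen genes *Nid1* and *Nid2*. All 10 were found among the 55416 genes counted, and all 10 passed the filter on low counts. RNA was sequenced from microdissected E16.5 lenses of 4 *Atf4* null embryos and 5 wildtype littermates, with 1 library for the lens pair of each embryo. The *Atf4* null embryos were homozygous for Atf4tm1Tow, a germline allele in which a neomycin resistance cassette replaces coding exons, so the deletion was present in every tissue of the embryo. Both genotypes came from intercrosses of heterozygotes on a mixed C57Bl/6 and 129 background and were not typed for the *Bfsp2* deletion that 129 strains carry. The study used animals of both sexes, and its methods do not give the sex of the sequenced embryos. The comparison asked which basement membrane transcripts differ in level when ATF4, a transcription factor of the integrated stress response, is missing.

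A laminin is a trimer of an alpha, a beta and a gamma chain that assembles in the endoplasmic reticulum, is secreted, and polymerises through the ends of its short arms into a sheet that integrins and dystroglycan anchor to the cell. Nidogens bind the gamma chain and tie the laminin sheet to type IV collagen and to perlecan. The lens capsule is an unusually thick basement membrane that epithelial and fiber cells lay down around the whole lens, and in the embryo the hyaloid vessels on its surface add basement membranes of their own. Whole lens RNA therefore gave the transcripts of all of these cells, and a transcript level does not say how much of the protein reached the capsule.

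Gene counts per library ran from 8409779 to 8906996 in wildtype and from 7440807 to 8696699 in *Atf4* null lenses. The 10 genes together took 0.388% to 0.427% of the counts of a wildtype library and 0.228% to 0.303% of an *Atf4* null library, and a single gene had from 23 to 18311 counts in a library. *Atf4* itself stood at 119 to 155 CPM, counts scaled to equal library size, in wildtype and at 0.582 to 10.6 CPM in *Atf4* null libraries. The crystallin transcripts *Crybb1* and *Cryba1* were abundant in every library. Other fiber markers were low, with *Birc7* at 3.49 to 40.3 CPM, and 1 of the 14 fiber markers, *Lim2*, was at 0 counts in all libraries. One wildtype library, replicate 5, stood apart from the rest. Its summed level of 12 mesenchyme markers was 16427 CPM against 475 to 486 CPM across wildtype replicates 1 to 4, and its 12 skeletal muscle markers summed to 9548 CPM against 96.9 to 139 CPM, so the fits below were made with and without it. Apart from that library, several marker sums also differed between the genotypes. The 12 lens epithelium markers, all detected in every library, summed to 1860 to 2548 CPM in *Atf4* null libraries, 3237 to 3344 CPM across wildtype replicates 1 to 4 and 2440 CPM in wildtype replicate 5. *Cdh1*, *Cdh2*, *Foxe3*, *Npnt* and *Slc38a3* lay below wildtype replicates 1 to 4 in every *Atf4* null library. The ranges of the other listed epithelium markers overlapped. *Cdh1* had 5.58 to 20.8 CPM in *Atf4* null libraries and 172 to 204 CPM across wildtype replicates 1 to 4, and *Mki67* had 224 to 769 and 422 to 505 CPM. The 14 fiber markers summed to 24956 to 59933 CPM in *Atf4* null libraries, 56268 to 62022 CPM across wildtype replicates 1 to 4 and 32701 CPM in wildtype replicate 5. The sum of *Atf4* null replicate 4 lay within the range of wildtype replicates 1 to 4, but its single markers split. In that library *Bfsp1* had 4100 CPM against 6896 to 8147 CPM across wildtype replicates 1 to 4, and *Crybb1* had 21715 against 17428 to 19080 CPM. The 10 neural retina markers, also detected in every library, summed to 301 to 770, 171 to 277 and 213 CPM in the order of the fiber sums. The mesenchyme sum was 497 to 884 CPM in *Atf4* null libraries, with 9 of the 12 markers above 0 in every library, and thus above wildtype replicates 1 to 4 as well. Its members did not share a direction, with *Col1a1* at 93.6 to 146 CPM in *Atf4* null libraries and 8.99 to 29.1 CPM across wildtype replicates 1 to 4, and *Pdgfra* at 6.70 to 26.2 and 179.6 to 227 CPM. The 6 pigment cell markers, 5 of them above 0 in every library, summed to 43.1 to 109, 20.2 to 42.1 and 141 CPM. What part these shifts have in the values of the laminins and nidogens was not tested. In RNA from a whole lens, fewer cells of a type and less RNA per cell cannot be told apart.

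Transcripts of 5 of the 10 genes fell in *Atf4* null lenses and none rose. With edgeR's quasi-likelihood test and Benjamini-Hochberg adjustment over 14903 genes, *Lama1*, *Lama3*, *Lamb1*, *Lamc1* and *Nid1* passed an adjusted p of 0.05 in the lower direction. Of all genes tested, 3.67% passed in that direction, 2.23% passed in the higher direction and 5.9% passed in either. The same 5 genes passed without wildtype replicate 5, where 4.96% of 14493 genes passed as lower, 3.37% as higher and 8.33% in either direction. Every *Atf4* null library lay below every wildtype library for these 5 genes, while 5.58% of all genes tested were separated in that way and 10.2% in either direction. With wildtype replicate 5 set aside, *Lama5* joined them, giving 6 genes without overlap against 8.75% of all genes, or 15.4% in either direction. The median log2 fold change of the 10 genes was -0.68 with all libraries and -0.59 without wildtype replicate 5, whereas that of all genes tested was 0.00 and 0.03.

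**Figure D1:**
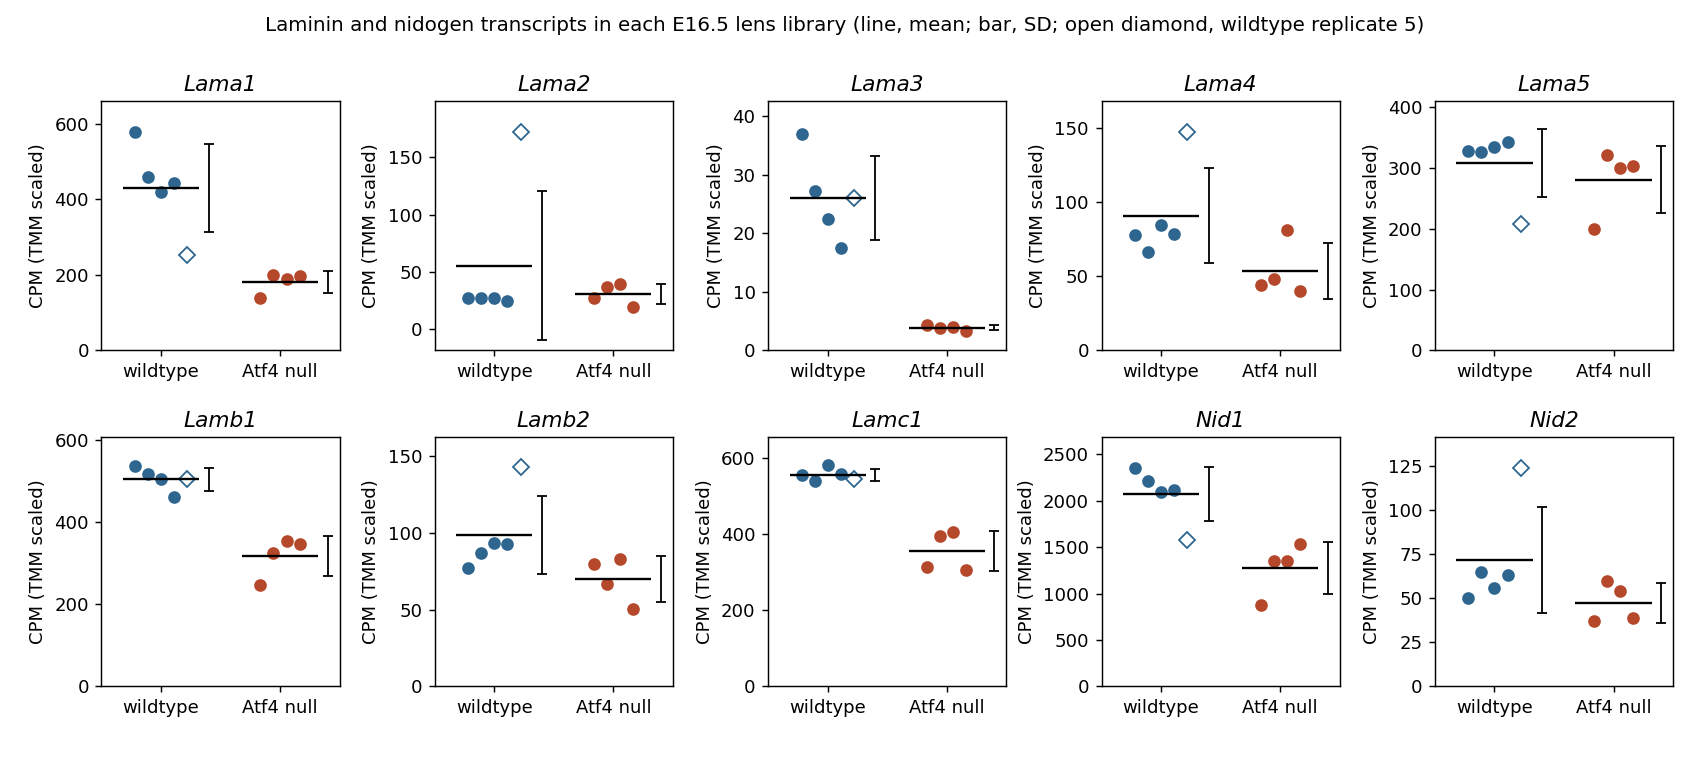
TMM-scaled CPM of each gene in every library, on linear axes, with 5 wildtype libraries (blue, replicate 5 as an open diamond) and 4 *Atf4* null libraries (orange), the group mean as a line and the SD as a bar beside it. The *Atf4* null points lie wholly below the wildtype points for *Lama1*, *Lama3*, *Lamb1*, *Lamc1* and *Nid1*, and wildtype replicate 5 lies outside the other wildtype points for *Lama2*, *Lama4*, *Lama5*, *Lamb2* and *Nid2* as well as for *Lama1* and *Nid1*.

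**Figure D2:**
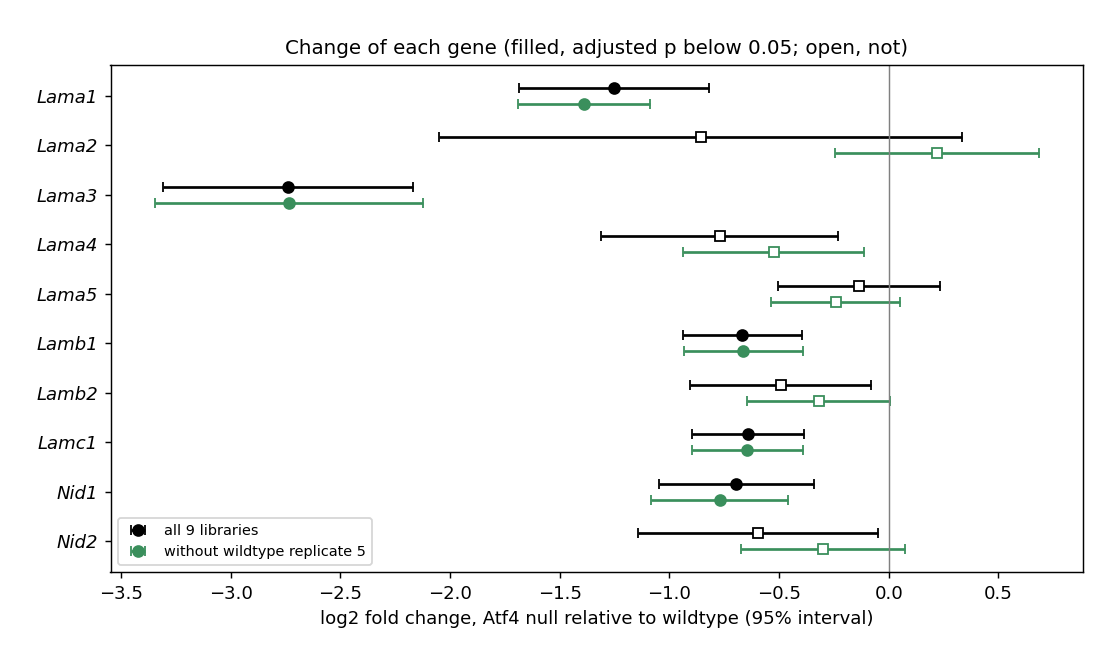
Log2 fold change (*Atf4* null relative to wildtype) of each gene from edgeR with its 95% interval, with all 9 libraries (black) and without wildtype replicate 5 (green). Filled symbols mark an adjusted p below 0.05, and the only gene whose estimate changes side is *Lama2*, from -0.86 to 0.22.

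The alpha chain decides which cell receptors a laminin binds, and *Lama1* encodes the alpha chain of the early embryonic laminin. It lies on chromosome 17 of GRCm39 (chr17:68004223-68129642, plus strand, ENSMUSG00000032796). *Lama1* transcript stood at 577, 458, 419, 444 and 253 CPM in wildtype replicates 1 to 5 and at 139, 199, 188 and 196 CPM in *Atf4* null replicates 1 to 4. The 4 *Atf4* null libraries were all below the lowest wildtype library, which was replicate 5. The means were 181 ± 28.1 CPM (SD, n = 4) and 430.3 ± 117 CPM (SD, n = 5), a log2 fold change of -1.25 ± 0.20 (SE, edgeR adjusted p = 0.00248). An exact two-sided permutation test over all 126 ways of dividing the 9 libraries gave p = 0.016, against a smallest possible 0.0079. Without wildtype replicate 5 the log2 fold change was -1.39 ± 0.14 (SE, edgeR adjusted p = 1.15e-05), and the *Atf4* null mean was 38.1% of the wildtype mean.

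*Lama3*, the alpha chain gene of the epithelial laminin that anchors hemidesmosomes in skin, had the largest fold change of the 10 genes in both comparisons. The gene spans chr18:12466876-12717747 on the plus strand (ENSMUSG00000024421). Its level was low. Wildtype replicates 1 to 5 had 37.0, 27.3, 22.5, 17.5 and 26.0 CPM, and *Atf4* null replicates 1 to 4 had 4.29, 3.84, 4.06 and 3.35 CPM. No library of one genotype came near the range of the other, and wildtype replicate 5 sat within the range of the other wildtype libraries. *Lama3* was 6.67-fold lower in *Atf4* null lenses (log2 fold change -2.74 ± 0.26 SE, edgeR adjusted p = 5.99e-05), and 6.65-fold lower without wildtype replicate 5 (adjusted p = 1.55e-05). The exact permutation test gave its smallest possible p, 0.0079. *Lamb3*, which encodes the beta chain that usually pairs with the *Lama3* chain, was too low to be tested, with at most 25 counts in a library. The 8 summed surface ectoderm and cornea markers, a tissue rich in *Lama3*, were at 4.82 to 6.84 CPM in *Atf4* null libraries, 0.740 to 3.42 CPM across wildtype replicates 1 to 4 and 26.2 CPM in wildtype replicate 5. Only 1 of these 8 markers was above 0 in every library, and their part in the *Lama3* values was not tested.

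*Lama5*, the alpha chain gene expressed most widely in later embryonic and adult basement membranes, did not pass the test. It is transcribed from the minus strand at chr2:179818166-179867712 (ENSMUSG00000015647). The wildtype libraries had 328, 327, 335, 342 and 208 CPM and the *Atf4* null libraries 199, 321, 299.6 and 303 CPM. One library of each genotype, wildtype replicate 5 and *Atf4* null replicate 1, fell well under its group, and those were also the libraries with the lowest summed fiber markers of each genotype, 32701 and 24956 CPM. *Atf4* null replicates 2, 3 and 4 had fiber sums of 38965, 37726 and 59933 CPM beside *Lama5* at 321, 299.6 and 303 CPM. The part of the fiber markers in the *Lama5* values was not tested. The log2 fold change was -0.14 with a 95% interval from -0.50 to 0.23 (edgeR adjusted p = 0.742). Without wildtype replicate 5 it was -0.24, with an interval from -0.54 to 0.05 (edgeR adjusted p = 0.339), although the *Atf4* null and wildtype libraries no longer overlapped. These intervals exclude a fall of the size seen for *Lama1*.

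*Lama2* and *Lama4* encode the alpha chains of muscle and peripheral nerve and of vascular endothelium, respectively. Neither passed the test. *Lama2* (chr10:26856032-27495754, minus strand, ENSMUSG00000019899) had 27.1, 27.2, 26.9 and 24.4 CPM across wildtype replicates 1 to 4 and 172 CPM in replicate 5, the library with the high muscle and mesenchyme markers. The *Atf4* null libraries had 27.5, 36.8, 39.0 and 19.2 CPM, a range that spans wildtype replicates 1 to 4. Its log2 fold change was -0.86 (95% interval -2.05 to 0.33) with all libraries and 0.22 (-0.24 to 0.68) without wildtype replicate 5, so the direction of the estimate rested on that library. *Lama4* (chr10:38841141-38998403, plus strand, ENSMUSG00000019846) had 77.9, 66.8, 84.7, 78.7 and 147 CPM in wildtype replicates 1 to 5 and 44.3, 48.2, 81.1 and 39.9 CPM in *Atf4* null replicates 1 to 4. *Atf4* null replicate 3 fell among the wildtype libraries and the other 3 lay below them. The log2 fold change was -0.77 ± 0.25 (SE, edgeR adjusted p = 0.0975) with all libraries and -0.52 ± 0.19 (SE, edgeR adjusted p = 0.115) without wildtype replicate 5. The 11 vascular endothelium markers, all detected in every library, summed to 451, 471, 599.7 and 281 CPM in *Atf4* null replicates 1 to 4, to 483 to 678 CPM across wildtype replicates 1 to 4 and to 840.3 CPM in wildtype replicate 5. The *Atf4* null library with the highest *Lama4* was thus also the one with the highest endothelial sum, and the lowest had the lowest. Their part in the *Lama4* values was not tested. When *Atf4* null replicate 3 was left out as well as wildtype replicate 5, *Lama4* passed (log2 fold change -0.80, edgeR adjusted p = 0.0067).

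*Lamb1* and *Lamc1* encode the beta and gamma chains that pair with most alpha chains, and both fell by a similar amount. *Lamb1* lies at chr12:31315030-31379658 on the plus strand (ENSMUSG00000002900). It had 536, 515, 505, 459.6 and 503 CPM in wildtype replicates 1 to 5 and 245, 324, 354 and 345 CPM in *Atf4* null replicates 1 to 4. *Lamc1* lies at chr1:153094597-153208774 on the minus strand (ENSMUSG00000026478). It had 554, 538, 579.9, 559 and 544 CPM in wildtype and 313, 395, 406 and 307 CPM in *Atf4* null libraries. The wildtype libraries were close together for both genes, with replicate 5 inside the range of the other 4, and no *Atf4* null library reached them. The log2 fold change was -0.67 ± 0.13 for *Lamb1* (SE, edgeR adjusted p = 0.0065) and -0.64 ± 0.12 for *Lamc1* (SE, edgeR adjusted p = 0.00585). Leaving out wildtype replicate 5 gave -0.66 and -0.65 (edgeR adjusted p = 0.00346 and 0.00241). For each gene the exact permutation p was 0.0079, the smallest possible. The *Lamb1* to *Lamc1* ratio per length was 0.826 to 1.19 in *Atf4* null libraries and 0.868 to 1.02 across wildtype replicates 1 to 4, ranges that overlap, and 0.976 in wildtype replicate 5.

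*Lamb2*, the beta chain gene of the glomerulus and the neuromuscular junction, had lower estimates that did not pass. It lies at chr9:108356935-108367729 on the plus strand (ENSMUSG00000052911). Its levels were 77.4, 86.9, 93.1, 92.9 and 143 CPM in wildtype and 79.7, 66.8, 83.2 and 50.4 CPM in *Atf4* null libraries. The highest *Atf4* null libraries overlapped the lowest wildtype libraries, and wildtype replicate 5 was again the highest of all. The log2 fold change was -0.49 (95% interval -0.90 to -0.08, edgeR adjusted p = 0.164), and -0.32 without wildtype replicate 5 (interval -0.64 to 0.01, adjusted p = 0.242).

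*Nid1*, which encodes the main nidogen, had the highest level of the 10 genes. The gene (chr13:13612071-13686860, plus strand, ENSMUSG00000005397) had 2351, 2214, 2092, 2118 and 1582 CPM in wildtype replicates 1 to 5 and 882, 1347, 1353 and 1539 CPM in *Atf4* null replicates 1 to 4. Wildtype replicate 5 was only slightly above the highest *Atf4* null library. The means were 1280.2 ± 280.1 CPM (SD, n = 4) and 2072 ± 292 CPM (SD, n = 5), a log2 fold change of -0.69 ± 0.16 (SE, edgeR adjusted p = 0.0242). This call was close to the threshold, since leaving out *Atf4* null replicate 2 or 3 or any of wildtype replicates 1 to 4 gave edgeR adjusted p values of 0.0597 to 0.0682. Without wildtype replicate 5 the log2 fold change was -0.77 ± 0.15 (SE, edgeR adjusted p = 0.00296), and the call then held when any further library was left out. *Nid2*, at chr14:19801298-19861855 on the plus strand (ENSMUSG00000021806), encodes the second nidogen, which binds the same partners. It had 50.2, 65.2, 55.7, 63.4 and 124 CPM in wildtype and 37.1, 59.8, 54.2 and 38.9 CPM in *Atf4* null libraries. The genotypes overlapped, and wildtype replicate 5 was the highest library. The log2 fold change of -0.60 (95% interval -1.14 to -0.05) did not pass (edgeR adjusted p = 0.210), nor did that of -0.30 without wildtype replicate 5 (interval -0.67 to 0.07, adjusted p = 0.352).

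The libraries that were lowest within a genotype were not the same for all genes. Among *Atf4* null libraries, replicate 1 was lowest for *Lama1*, *Lama5*, *Lamb1*, *Nid1* and *Nid2*, and replicate 4 was lowest for *Lama2*, *Lama3*, *Lama4*, *Lamb2* and *Lamc1*. *Atf4* null replicate 1 had the lowest fiber sum of its genotype, 24956 CPM against 37726 to 59933 CPM in the other 3. *Atf4* null replicate 4 had the lowest endothelial sum and the lowest epithelial sum, 1860 CPM. Wildtype replicate 5 was above the other wildtype libraries for *Lama2*, *Lama4*, *Lamb2* and *Nid2*, below them for *Lama1*, *Lama5* and *Nid1*, and among them for *Lama3*, *Lamb1* and *Lamc1*. *Lama1*, *Lama3*, *Lamb1* and *Lamc1* passed with each of the 9 libraries left out in turn.

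**Figure D3:**
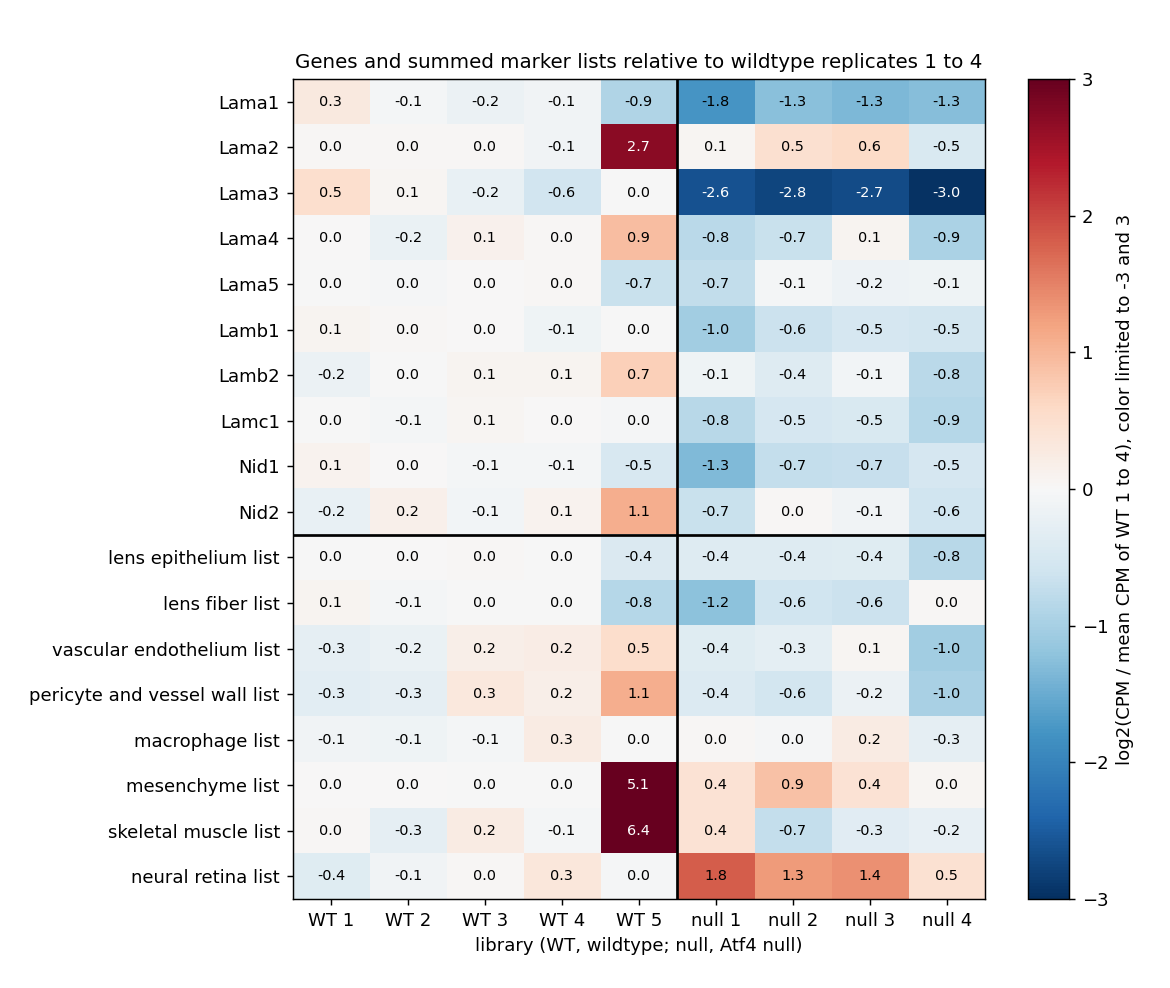
Log2 ratio of the CPM of each gene (upper rows) and of each summed marker list (lower rows) to the mean of wildtype replicates 1 to 4, for each of the 9 libraries. The *Lama1*, *Lama3*, *Lama5*, *Lamb1*, *Lamb2*, *Lamc1* and *Nid1* rows are negative in all 4 *Atf4* null libraries, as are the lens epithelium and pericyte rows. The mesenchyme and skeletal muscle rows are high in wildtype replicate 5, and the neural retina row is positive in all *Atf4* null libraries.

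Levels were compared between genes as FPKM, here CPM divided by the summed exon length in kilobases. In wildtype replicates 1 to 4, *Nid1* led with 293 ± 15.6 FPKM (SD, n = 4). *Lamc1* (49.2 ± 1.54), *Lama1* (48.9 ± 7.24) and *Lamb1* (47.0 ± 3.00) followed with ranges that overlap from each to the next. *Lama5* came next with 29.1 ± 0.632, then *Lamb2* with 14.4 ± 1.21, *Nid2* with 9.03 ± 1.07 and *Lama4* with 4.90 ± 0.477 FPKM. *Lama3* (2.02 ± 0.645) and *Lama2* (1.48 ± 0.0738) were lowest and overlapped. In *Atf4* null lenses *Nid1* still led with 171 ± 37.3 FPKM (SD, n = 4), *Lamc1* and *Lamb1* had 31.4 ± 4.65 and 29.6 ± 4.61, and *Lama5* with 24.5 ± 4.80 stood above *Lama1* with 18.6 ± 2.89. These 4 chains overlapped from each to the next. *Lama3* was last with 0.301 ± 0.0310 FPKM. Wildtype replicate 5 had *Nid1* at 210.9, *Lamc1* at 48.1, *Lamb1* at 46.9, *Lama1* at 26.0 and *Lama5* at 18.2 FPKM, with *Lamb2* (23.4) and *Nid2* (19.1) above *Lama5*. Dividing by the length of the canonical transcript instead put *Lamb1* above *Lamc1* in both genotypes, separated *Lamb1* (86.9 FPKM), *Lamc1* (70.3) and *Lama1* (49.7) without overlap across wildtype replicates 1 to 4, and put *Lama4* above *Nid2* and *Lama2* above *Lama3* in wildtype, while *Lama1* remained above *Lama5* in wildtype and below it in *Atf4* null lenses.

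The most abundant alpha chain transcript per length thus differed between the genotypes. *Lama1* made up 61.0%, 56.4%, 53.2% and 54.9% of the summed alpha chain FPKM across wildtype replicates 1 to 4 and 39.4%, 38.0%, 36.4% and 40.0% in *Atf4* null replicates 1 to 4. Wildtype replicate 5, at 39.9%, lay within the *Atf4* null range, with *Lama2* at 14.8% and *Lama4* at 14.4% of its alpha chains. With canonical transcript lengths its *Lama1* share was 29.7%, below the *Atf4* null range of 30.9% to 36.8%, and its *Lama4* share was 27.4%. The *Lama5* share was 29.4% to 36.1% across wildtype replicates 1 to 4, 27.9% in wildtype replicate 5 and 47.8% to 52.3% in *Atf4* null libraries. The ratio of *Lama1* to *Lama5*, which the other alpha chains do not enter, was 2.08, 1.65, 1.47, 1.53 and 1.43 in wildtype replicates 1 to 5 and 0.824, 0.733, 0.740 and 0.765 in *Atf4* null replicates 1 to 4. All 5 wildtype ratios were above 1 and all 4 *Atf4* null ratios were below 1, wildtype replicate 5 included. *Lama3* took 1.63% to 2.94% of alpha chain FPKM across wildtype replicates 1 to 4, 3.10% in replicate 5 and 0.514% to 0.912% in *Atf4* null libraries. These shares are descriptions of the values above and were not tested separately.

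**Figure D4:**
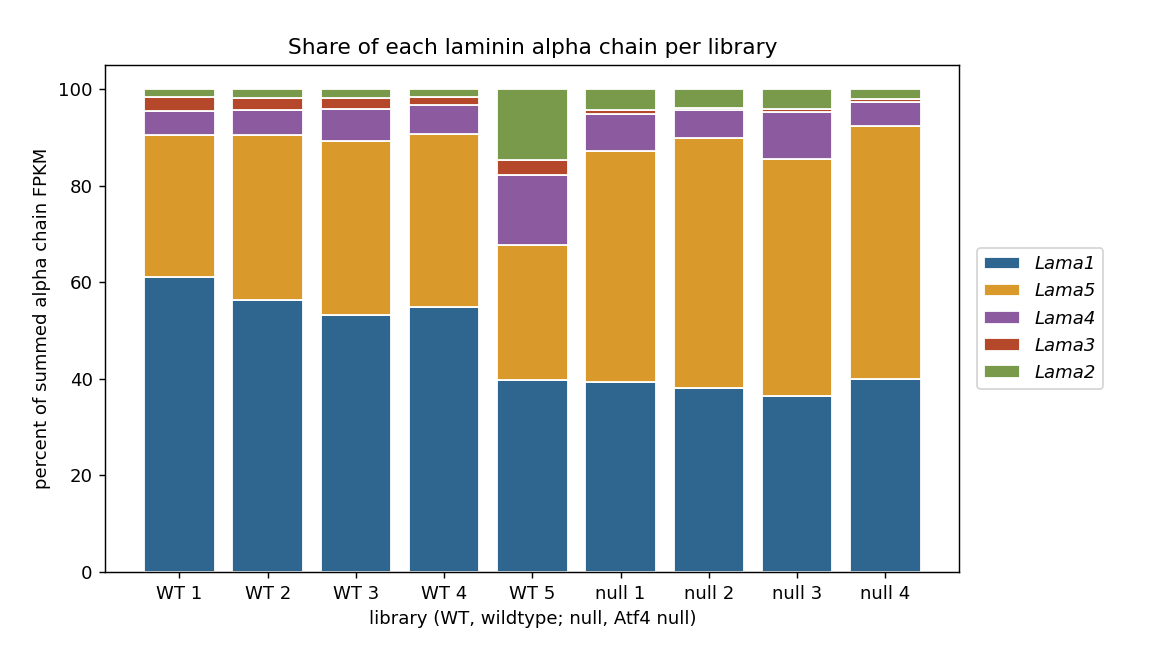
Percent of the summed alpha chain FPKM taken by each of the 5 alpha chain genes, 1 stacked bar per library. *Lama1* (blue) takes over 53% in wildtype replicates 1 to 4 and 36.4% to 40.0% in the *Atf4* null libraries, and wildtype replicate 5 differs from both by its *Lama2* (green) and *Lama4* (purple) shares.

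Summed over chains, the alpha transcripts reached 81.1 to 97.4 FPKM across wildtype replicates 1 to 4, 65.2 FPKM in wildtype replicate 5 and 36.5 to 54.0 FPKM in *Atf4* null libraries. The beta transcripts reached 58.1 to 62.7, 70.3 and 36.0 to 46.6 FPKM in the same order, and the single gamma transcript *Lamc1* 47.5 to 51.2, 48.1 and 27.1 to 35.9 FPKM. The nidogen sum was 288 to 321 FPKM across wildtype replicates 1 to 4, 230.1 FPKM in replicate 5 and 123 to 211 FPKM in *Atf4* null libraries. All 4 sums were lower in every *Atf4* null library than in every wildtype library. Relative to *Lamc1*, however, the nidogens overlapped, with a ratio of 4.45 to 7.80 in *Atf4* null libraries, 5.61 to 6.57 across wildtype replicates 1 to 4 and 4.79 in wildtype replicate 5. The *Lamb1* to *Lamb2* ratio (1.75 to 3.89 and 2.81 to 3.93) and the *Nid1* to *Nid2* ratio (19.5 to 34.3 and 28.9 to 40.6) also overlapped. Wildtype replicate 5 had lower ratios than the other wildtype libraries, 2.00 and 11.03. With canonical transcript lengths the *Lamb1* to *Lamb2* ratio was 2.99 to 6.66 in *Atf4* null libraries and 4.81 to 6.72 across wildtype replicates 1 to 4, ranges that still overlapped, and the mean beta sum of wildtype replicates 1 to 4 was 102.4 in place of 61.4 FPKM.

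The promoter windows of *Lamb1* and *Nid1*, which fell together, and of *Lama5*, which did not pass, are shown for what they have in common. RefSeq windows of 300 bases, from 250 bases before to 50 bases after the annotated start, were matched for 5 of the 10 genes (*Lama2*, *Lama5*, *Lamb1*, *Lamb2* and *Nid1*). *Lama1*, *Lama3*, *Lama4*, *Lamc1* and *Nid2* were not matched. The RefSeq start of *Lama2* lies 2816 bases inside the gene as GENCODE draws it, so that window describes an internal start, while the other 4 starts lie 60 to 262 bases from the GENCODE start. The start at 262 bases is that of *Lamb1*. Its whole window lies inside the GENCODE gene, which begins at position 31315030. The windows come from RefSeq on GRCm38.p6, and each was found exactly once in GRCm39, at chr12:31315042-31315341 on the plus strand for *Lamb1*, chr13:13611937-13612236 on the plus strand for *Nid1* and chr2:179867603-179867902 on the minus strand for *Lama5*. They are written 5′ to 3′ on the strand of the gene, and capitals mark the GC box GGGCGG or its reverse complement CCGCCC.

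Lamb1: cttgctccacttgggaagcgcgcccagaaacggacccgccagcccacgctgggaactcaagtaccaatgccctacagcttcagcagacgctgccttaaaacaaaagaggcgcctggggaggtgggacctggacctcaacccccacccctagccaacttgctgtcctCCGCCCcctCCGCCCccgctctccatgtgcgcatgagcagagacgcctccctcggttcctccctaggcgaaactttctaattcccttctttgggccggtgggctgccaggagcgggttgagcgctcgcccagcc

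Nid1: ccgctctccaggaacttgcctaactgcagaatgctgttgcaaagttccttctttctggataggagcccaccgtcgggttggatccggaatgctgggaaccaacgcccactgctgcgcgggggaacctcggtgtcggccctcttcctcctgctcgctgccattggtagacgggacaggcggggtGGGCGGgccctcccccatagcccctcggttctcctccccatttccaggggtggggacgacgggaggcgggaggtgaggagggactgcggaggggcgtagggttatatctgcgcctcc

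Lama5: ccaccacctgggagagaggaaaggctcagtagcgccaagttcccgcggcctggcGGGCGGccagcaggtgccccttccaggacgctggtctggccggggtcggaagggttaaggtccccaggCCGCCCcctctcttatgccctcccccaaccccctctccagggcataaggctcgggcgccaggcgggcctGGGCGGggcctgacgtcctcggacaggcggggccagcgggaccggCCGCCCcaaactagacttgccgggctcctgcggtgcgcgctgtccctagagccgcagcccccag

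The GC box is the core of the site that SP1 family factors bind, and it was present on either strand in 35.7% of all 32851 windows of this length. *Lamb1* had 2, with first bases 84 and 75 before the RefSeq start, counted on the strand of the gene, *Nid1* had 1 and *Lama5* had 4. *Lama2* had 1 and *Lamb2* had none. The windows of *Lama5*, *Lamb1* and *Nid1* were rich in G and C (72.7%, 63.7% and 64.7%) and in CpG (24, 18 and 20), against medians of 52.7% and 7 over all windows. Those of *Lama2* and *Lamb2* held 50.3% and 44.0% G and C. None of the 5 windows held TGATGCAA, the composite element that ATF4 binds with C/EBP partners, the cyclic AMP element TGACGTCA, the AP-1 element TGACTCA or a TATAAA box on either strand. These occur in 0.895%, 1.79%, 5.20% and 13.6% of all windows. A window without these letters says nothing about binding elsewhere or to other sequences.

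Genes whose pattern over 8 libraries, wildtype replicate 5 left out, was most like that of *Lama1* and *Lamc1* were found among 9280 genes with a mean of at least 10 CPM. Likeness was the root mean square difference of centred log2 CPM. The nearest to *Lama1* were *Cdkn1c*, an inhibitor of cyclin-dependent kinases (0.0805), *Ror1*, a WNT receptor (0.0880), and *Amph*, amphiphysin (0.138). The nearest to *Lamc1* were *Lrp12* (0.0583), *Fstl1*, a secreted glycoprotein (0.0653), and *App*, the amyloid precursor protein (0.0758).

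Other basement membrane genes that passed the test were all lower in *Atf4* null lenses. Of 25 listed and tested, 8 fell with all libraries and 10 fell without wildtype replicate 5, and none rose, where 3.67% and 4.96% of all genes fell. The median log2 fold change was -0.58 and -0.49. Type IV collagen forms the network beside laminin, and its chains of lowest level had the steepest fall among those called. *Col4a4* had 19.0 to 41.4 CPM across wildtype replicates 1 to 4, 33.1 CPM in replicate 5 and 1.89 to 6.58 CPM in *Atf4* null libraries (log2 fold change -2.75 ± 0.37 SE). *Col4a3* had 10.3 to 16.1, 16.9 and 2.62 to 6.48 CPM in the same order (-1.75 ± 0.34 SE). *Col4a5* and *Col4a6* fell by 0.66 and 0.81 on the log2 scale, with wildtype replicate 5 at 359 and 209 CPM, inside the *Atf4* null ranges of 288 to 427 and 152 to 235 CPM. Leaving it out, the log2 fold changes of *Col4a3*, *Col4a4*, *Col4a5* and *Col4a6* were -1.65, -2.68, -0.79 and -0.94, and all 4 passed. *Col4a1*, at 3577 to 4261 CPM across wildtype replicates 1 to 4 and 1838 to 2964 CPM in *Atf4* null libraries, had a log2 fold change of -0.55 (edgeR adjusted p = 0.0566) with all libraries and fell by 0.62 without wildtype replicate 5 (edgeR adjusted p = 0.00993). Its partner *Col4a2*, named here although it ranked beyond the 8 genes the naming rule allows per list, fell without wildtype replicate 5 by 0.49 on the log2 scale (edgeR adjusted p = 0.0281). With all libraries *Col4a2* did not pass (log2 fold change -0.41, edgeR adjusted p = 0.138).

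Among the linkers and modifiers, *Npnt*, encoding the integrin ligand nephronectin, fell, with 95.2 to 121 CPM across wildtype replicates 1 to 4 and 23.9 to 39.7 CPM in *Atf4* null libraries (log2 fold change -1.73 ± 0.16 SE). *Npnt* is also in the list of lens epithelium markers. *Pxdn*, encoding the peroxidase that crosslinks type IV collagen, had 732 to 825 CPM across wildtype replicates 1 to 4, 623 CPM in replicate 5 and 291 to 391 CPM in *Atf4* null libraries (-1.11 ± 0.13 SE). *Hspg2*, encoding perlecan, and *Sparc*, a collagen-binding glycoprotein, fell by 0.58 and 0.65. With wildtype replicate 5 left out the log2 fold changes were -1.76 for *Npnt*, -1.16 for *Pxdn*, -0.63 for *Hspg2* and -0.54 for *Sparc*, and all 4 passed. The heparan sulfate proteoglycan genes *Agrn* (log2 fold change 0.46) and *Col18a1* (0.23) named after their values were seen, did not pass and had estimates above 0.

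**Figure D5:**
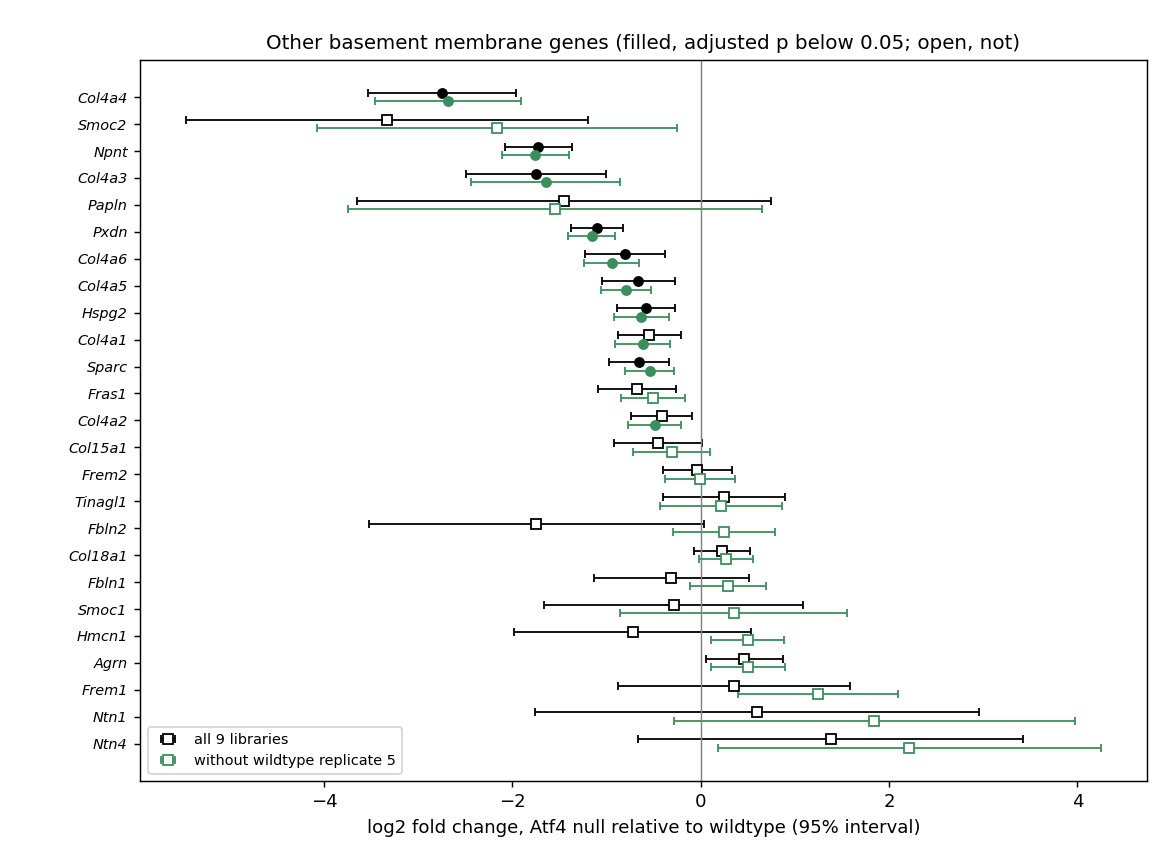
Log2 fold change (*Atf4* null relative to wildtype) with its 95% interval for the 25 other basement membrane genes, with all 9 libraries (black) and without wildtype replicate 5 (green). Filled symbols mark an adjusted p below 0.05, and all of these, 8 with all libraries and 10 without wildtype replicate 5, lie below 0.

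Of 17 genes listed as receptors of laminins or netrins, 1 fell and 1 rose with all libraries, against 5.9% of all genes in either direction, with a median log2 fold change of -0.18. In the fit without wildtype replicate 5, 3 fell and 2 rose, against 8.33% of all genes. *Itga6*, encoding the integrin alpha subunit that binds laminin in the lens epithelium, fell, with 219 to 286 CPM across wildtype replicates 1 to 4, 169.5 CPM in replicate 5 and 110 to 133 CPM in *Atf4* null libraries (log2 fold change -0.94 ± 0.14 SE, edgeR adjusted p = 0.00192), and by 1.03 without wildtype replicate 5. *Dcc*, a netrin receptor of neurons, rose by 1.16 ± 0.30 (SE, edgeR adjusted p = 0.0398), with 29.3 to 128 CPM in *Atf4* null libraries, and by 1.17 without wildtype replicate 5. Its *Atf4* null range included the wildtype range of 30.8 to 36.3 CPM, and the neural retina markers given above were higher in the same genotype. *Itga3* (log2 fold change -0.60) and *Itga2* (-0.78) also passed as lower without wildtype replicate 5. *Itgb4*, the integrin beta chain of hemidesmosomes, passed as higher only without that library (edgeR adjusted p = 0.00945, against 0.519 with it), with 2.41 to 5.04 CPM in *Atf4* null libraries, 0 to 0.494 CPM across wildtype replicates 1 to 4 and 6.75 CPM in wildtype replicate 5. The surface ectoderm and cornea sum given above had the same order, and its part in the *Itgb4* values was not tested. The shared beta subunit gene *Itgb1* (log2 fold change -0.18) and the dystroglycan gene *Dag1* (-0.02), named after their values were seen, did not pass.

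Genes that link these receptors to the cell interior or that process the matrix were taken from 3 further lists. Of 20 tested genes of dystroglycan glycosylation and the dystrophin complex, 1 passed, *Sspn* (log2 fold change -1.23, edgeR adjusted p = 0.0478), and 0 passed without wildtype replicate 5, where *Sspn* had -1.01 (edgeR adjusted p = 0.0951). That count is near the share of all genes. Of 14 genes of the integrin linkage, 2 fell, where 3.67% of all genes fell and 5.9% passed in either direction. They were *Pxn* and *Fermt2*, encoding paxillin and kindlin 2, which fell by 0.63 and 0.43. Without wildtype replicate 5 they fell by 0.53 and 0.42 and were joined by *Tln2*, encoding a talin, as lower (-0.54) and *Vcl*, encoding vinculin, as higher (0.68), where 4.96% of all genes fell and 8.33% passed in either direction. In the list of folding, secretion and proteolysis, 3 of 23 tested genes fell and 0 rose with all libraries, and 2 fell and 2 rose without wildtype replicate 5, beside the same shares of all genes. They were *P4ha1* (-1.02) and *Plod1* (-0.65), which hydroxylate collagen, and *Mia3* (-0.40), which loads procollagen for export from the endoplasmic reticulum. *P4ha1* and *Plod1* also passed without wildtype replicate 5 (-1.09 and -0.66). *Mia3* did not pass without wildtype replicate 5 (edgeR adjusted p = 0.0533), where the metalloproteinase genes *Mmp2* (1.06) and *Mmp14* (0.69) passed as higher. With all libraries neither passed, and the estimates were -0.56 for *Mmp2* (edgeR adjusted p = 0.737) and 0.03 for *Mmp14* (edgeR adjusted p = 0.9815), so the direction for *Mmp2* rested on that library. Both are also mesenchymal genes, with 255 and 193 CPM in wildtype replicate 5, and the mesenchyme sum given above was also higher in *Atf4* null libraries than across wildtype replicates 1 to 4. Its part in their rise was not tested.

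Several of the genes share exonic bases with a neighbour on the other strand, and the strand setting of the counting is not given in the sources used here. Among neighbours that were themselves counted, these were *Dld* for *Lamb1* (303 shared bases), *Adrm1* for *Lama5* (85), *Rtraf* for *Nid2* (767), *Fam229b* for *Lama4* (806) and the noncoding *Gm48682* for *Nid1* (143). Further annotated noncoding neighbours, which were not counted, share up to 1210 bases with *Lama4*, 514 with *Lamb1* and 119 with *Lama3*. None of the 5 counted neighbours passed the test, with edgeR adjusted p values of 0.292 to 0.998. The counted antisense neighbours of *Lama2* and *Lama3* had no counts, and the pseudogene that overlaps *Lama3* on the same strand had at most 9 counts in a library.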

How the data were processed

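Total RNA of each lens pair was made into libraries with the Takara SMARTer Stranded Pico v2 kit and sequenced over 4 lanes per library. Per the study's methods, the authors trimmed reads with Trim Galore, removed reads aligning to RN45S ribosomal RNA with HISAT2, mapped what remained to GRCm39 and assigned reads to Ensembl genes using HTSeq. The deposited values are counts, whole numbers without normalization. HTSeq's summary entries, 44.6% to 47.7% of each library's total, were left out. Genes were joined by Ensembl identifier to GENCODE vM39 on GRCm39, which gave a symbol to 54749 of 55416 genes, holding 99.967% of counts. Sample title and count file disagree on which wildtype library is meant for all 5 wildtype samples, so wildtype numbers are uncertain, but genotype is not. No library repeats another, the smallest chi-square between 2 libraries being 7.93 per degree of freedom.

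Counts were compared with edgeR 4.0.16 in R 4.3.3 (filterByExpr, TMM factors, quasi-likelihood test, no covariate), with and without wildtype replicate 5, after the procedure had been tested on simulated data. P-values were adjusted by Benjamini-Hochberg over all genes tested, with a threshold of 0.05. SE was the log2 fold change over the square root of F, and intervals cover 95%. CPM carry TMM factors, and FPKM divide CPM by summed exon length in kilobases. Single genes were also tested by exact two-sided permutation of mean log2 CPM. The named genes are the 10 members, genes of the pathway lists that passed (at most the 8 smallest p per list) and the 3 genes nearest to *Lama1* and to *Lamc1*, with the exceptions stated beside them. The members and lists were chosen with earlier results of these data known. Alternatives were DESeq2 1.42.0, edgeR's exactTest (the study's test), library size or RLE factors, no filter or a minimum of 10 counts per library, a robust fit, the replicate number as a block, each library left out, and, added after the data were seen, canonical transcript length. Motifs were searched with Python 3.11.15. Protein sequences were not analysed here.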

Additional observations from a re-analysis of the deposited data

Results flagged for a closer look

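A gap test within each genotype (Dixon's criterion at the 95% level, on CPM) was made for 20 groups of libraries, 10 genes in each genotype. By chance it marks about 1 group in 20. It marked 5, all of them in wildtype and all of them replicate 5. That library was high for *Lama2* (172 CPM), *Lama4* (147 CPM), *Lamb2* (143 CPM) and *Nid2* (124 CPM), and low for *Lama5* (208 CPM). It was also the library with mesenchyme markers at 16427 CPM and skeletal muscle markers at 9548 CPM, and with the lowest summed fiber markers of the wildtype libraries, 32701 CPM. Their part in these 5 values was not tested. None of the 5 genes passed the test of genotype with or without that library.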

How the results depend on the processing

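The number of the 10 genes that passed stayed between 4 and 6 over 17 alternatives with all libraries, and between 5 and 6 over 13 alternatives without wildtype replicate 5. *Lama1*, *Lama3*, *Lamb1* and *Lamc1* passed in all of these. With each library left out in turn, 4 to 5 genes passed with all libraries and 5 to 6 without wildtype replicate 5. *Nid1* missed the threshold in 6 of the 17, all of them leaving out 1 library. *Lama4* passed with DESeq2 (adjusted p = 0.0267), with no filter (0.0172) and without *Atf4* null replicate 3 (0.0371). The sign of *Lama2* turned with the replicate number as a block (log2 fold change 0.17, where wildtype replicate 5 forms a block of its own) and without wildtype replicate 5 (0.22), and that of *Lama5* turned without *Atf4* null replicate 1 (0.0034). With single libraries left out, *Lama2* ran from -1.05 to 0.22 and *Lama5* from -0.24 to 0.0034, and neither passed. Under the canonical transcript length, the mean *Lama1* share of alpha chain FPKM was 34.1% in *Atf4* null libraries and 51.4% in wildtype replicates 1 to 4, against 38.5% and 56.4%. Scaling by library size alone moved the median log2 fold change of all genes to 0.12, or 0.18 without wildtype replicate 5, and all 5 genes still passed. Among all genes, DESeq2 passed 1397 in place of 880, and leaving out 1 library gave 527 to 1207. The replicate numbers are used here only as names of samples, and the wildtype numbers are uncertain. A comparison by number therefore cannot show whether libraries were paired. Deviations of same-numbered libraries correlated at -0.0744 to -0.00818, none of 4 best with its own number, and under the replicate block the same 5 genes passed in both comparisons, with 852 and 873 genes in all.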
